A study of Mus musculus with 2 samples.

Results

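Secondary granule genes encode proteins that neutrophils pack into their specific granules while they mature in the bone marrow. The 9 genes described here, Ltf, Lcn2, Camp, Ngp, Cd177, Olfm4, Chil1, Chil3 and Hp, were taken by name from the 25943 genes of the deposited expression table, and all 9 were found. They were followed along the granulocyte stages, in macrophage-like and monocyte-like cells, and as free RNA in cells of other lineages. The cells came from the bone marrow of male wild-type mice 8 to 10 weeks old, with no sort for a cell type. 1 library was labelled control and 1 was labelled MCAO, for middle cerebral artery occlusion, which models ischaemic stroke by closing a large vessel of the brain. Both libraries carry the same treatment text in their labels. How many mice each library pooled, how long after surgery the marrow was taken and whether control mice had a sham operation is not given in the sources used here. With 1 library per condition no difference between control and MCAO has a replicate check, no p-value was computed, and every interval in brackets is a 95% interval that covers counting error only.

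Neutrophils form their granules in a fixed order. Primary granules, with myeloperoxidase and elastase, arise in promyelocytes. Secondary granules follow in myelocytes and metamyelocytes, which correspond here to pre-neutrophils and immature neutrophils, and mature cells carry the stored proteins after most of the transcription has ended. The transcription factor C/EBP epsilon is known to be needed for the secondary granule program. Ltf encodes lactoferrin, an iron-binding protein, and Lcn2 encodes lipocalin 2, which binds the iron carriers of bacteria. Camp encodes the cathelicidin antimicrobial peptide, and Ngp encodes a granule protein related to cystatins and cathelicidins. Cd177 is a glycoprotein of the neutrophil surface and of the granule membrane. Olfm4 encodes olfactomedin 4, known from both mice and humans as a granule protein of only some neutrophils. Chil1 and Chil3 encode chitinase-like proteins without chitinase activity, and Chil3 is also made by monocytes and macrophages. Hp encodes haptoglobin, a haemoglobin-binding plasma protein that liver cells secrete and neutrophils store.

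The promoters of the genes with the highest levels are shown with the matches to 1 C/EBP motif, because the 9 genes share a stage of expression. The sequences are from RefSeq on GRCm38.p6, run 5′ to 3′ on the strand of the gene, and hold the 250 bases before the RefSeq transcription start. The motif search also took in the 50 bases after it. Capitals mark each match to TTGCNNAA, read on both strands. Ltf lies at chr9:111019042-111019291 on the plus strand, Lcn2 at chr2:32387740-32387989 on the minus strand, Ngp at chr9:110419558-110419807 on the plus strand and Camp at chr9:109849457-109849706 on the minus strand.
Ltf: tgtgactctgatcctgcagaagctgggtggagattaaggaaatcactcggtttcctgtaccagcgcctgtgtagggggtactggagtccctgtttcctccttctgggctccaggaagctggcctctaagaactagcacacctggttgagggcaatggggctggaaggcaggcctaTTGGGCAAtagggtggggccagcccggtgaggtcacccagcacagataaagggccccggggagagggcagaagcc
Lcn2: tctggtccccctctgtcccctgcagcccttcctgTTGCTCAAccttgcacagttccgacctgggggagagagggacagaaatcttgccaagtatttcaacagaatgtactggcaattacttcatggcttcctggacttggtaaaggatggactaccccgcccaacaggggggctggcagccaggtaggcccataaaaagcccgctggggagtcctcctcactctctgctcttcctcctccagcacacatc
Ngp: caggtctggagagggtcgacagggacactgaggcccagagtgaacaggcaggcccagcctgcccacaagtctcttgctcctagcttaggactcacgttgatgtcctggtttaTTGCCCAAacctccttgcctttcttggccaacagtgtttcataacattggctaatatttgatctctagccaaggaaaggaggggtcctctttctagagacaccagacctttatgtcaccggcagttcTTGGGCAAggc
Camp: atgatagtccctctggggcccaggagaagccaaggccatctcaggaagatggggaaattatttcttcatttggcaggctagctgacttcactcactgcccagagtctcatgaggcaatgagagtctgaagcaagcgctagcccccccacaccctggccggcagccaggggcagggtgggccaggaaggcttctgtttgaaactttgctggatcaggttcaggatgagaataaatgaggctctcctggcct
The C/EBP motif was found in the promoters of Ltf, Lcn2 and Ngp, which is 3 of the 8 members with a promoter in the table, against 10.8% of 32851 promoters of the same length. The Ngp promoter held 2 matches, TTGCCCAA at -138 and TTGGGCAA at -11 from the start. The Ltf match was TTGGGCAA at -75 and the Lcn2 match TTGCTCAA at -216. Camp, which had a high level in the same stages, had no match in this window. A PU.1 motif, GAGGAAG on either strand, was found in 2 of the 8, Lcn2 and Olfm4, against 13.6% of all promoters. These matches describe letters only and no binding was measured. In GENCODE M21 all 9 genes are protein coding. Camp, Ngp and Ltf lie on chromosome 9, at 109847379 to 109849617, 110419747 to 110423012 and 111019271 to 111042767, and the others lie apart on chromosomes 1 (Chil1), 2 (Lcn2), 3 (Chil3), 7 (Cd177), 8 (Hp) and 14 (Olfm4). These bounds reach further upstream than the RefSeq starts used for the promoters shown. The whole Lcn2 window lies inside the GENCODE gene, at 32384633 to 32388252. The Ltf, Ngp and Camp windows overlap their genes in part, and the Ngp match at -11 lies inside its gene. Olfm4 overlaps Gm6999, a noncoding gene on the same strand, and the other 8 genes overlap no annotated gene. Chil4, a close copy of Chil3 on chromosome 3, had 11 UMIs in control and 8 in MCAO cells of the 4 stages, so few molecules were assigned to it, and reads that match both copies could not be traced.

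Of 10610 cells, 5212 were control cells, with a median depth of 3344 unique molecular identifiers (UMIs, 1 per captured mRNA molecule), and 5398 were MCAO cells, with a median of 4952. Cells were clustered without the 9 genes, so that their levels did not set the stages. The clusters were named by other markers, and the names may differ from those of the study. Promyelocyte-like cells (63 control and 132 MCAO), led by Elane, Mpo, Ctsg and Prtn3, had all 8 of their markers among their 10 leading genes. Pre-neutrophil-like cells (270 and 444) were led by Fcnb, Orm1 and Cebpe, immature-neutrophil-like cells (674 and 855) by genes that included Ly6g and Ifitm6, and mature-neutrophil-like cells (1508 and 1497) joined 4 clusters. Clusters 1 and 5 held most of the control mature cells and clusters 8 and 6 most of the MCAO ones, and cluster 8, led by Stfa3 and Stfa2, held 57 control and 512 MCAO cells. Levels were summed over the cells of a class and are given per 10000 of all its UMIs. A ratio was called when it reached 1.5 in either direction with at least 50 UMIs over both sums. Free RNA, RNA from broken cells that is captured with other cells, was read from B-lineage-like cells, the sum of B-cell-like and pro-B or pre-B-like cells, which should lack these genes. In them 11 of 1025 control and 5 of 383 MCAO cells had the 9 genes at 300 or more UMIs per 10000 and held 33.6% and 30.7% of the 9-gene UMIs, so these cells were left out of the free RNA level. With them the level of Ltf was 6.53 in control and 8.07 in MCAO, and without them 3.98 and 4.64. The limit of 300 was chosen after the values were seen and uses the sum of the 9 genes, so that values with and without such cells are descriptions. Because 1 UMI stands for 1 molecule whatever the length of the transcript, levels of different genes are on 1 scale.

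Together the 9 genes took 1.18% of all UMIs of control promyelocyte-like cells, 11.4% in pre-neutrophil-like cells, 12.8% in immature-neutrophil-like cells and 3.32% in mature-neutrophil-like cells. The MCAO values were 1.25%, 10.9%, 12.2% and 3.77%. About 1 in 8 captured molecules of an immature-neutrophil-like cell thus came from these genes, in both libraries. Ngp alone reached 556 UMIs per 10000 in control and 515 in MCAO immature cells. Pre-neutrophil-like cells exceeded promyelocyte-like cells for all 9 genes in both libraries, where 15.1% of all genes tested were called higher in control and 12.7% in MCAO. The median log2 difference over the 9 genes was 3.35 in control and 2.92 in MCAO, against -0.32 and -0.36 over all genes tested. The plot of levels by stage shows a common climb and then 3 kinds of course.

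**Figure D1:**
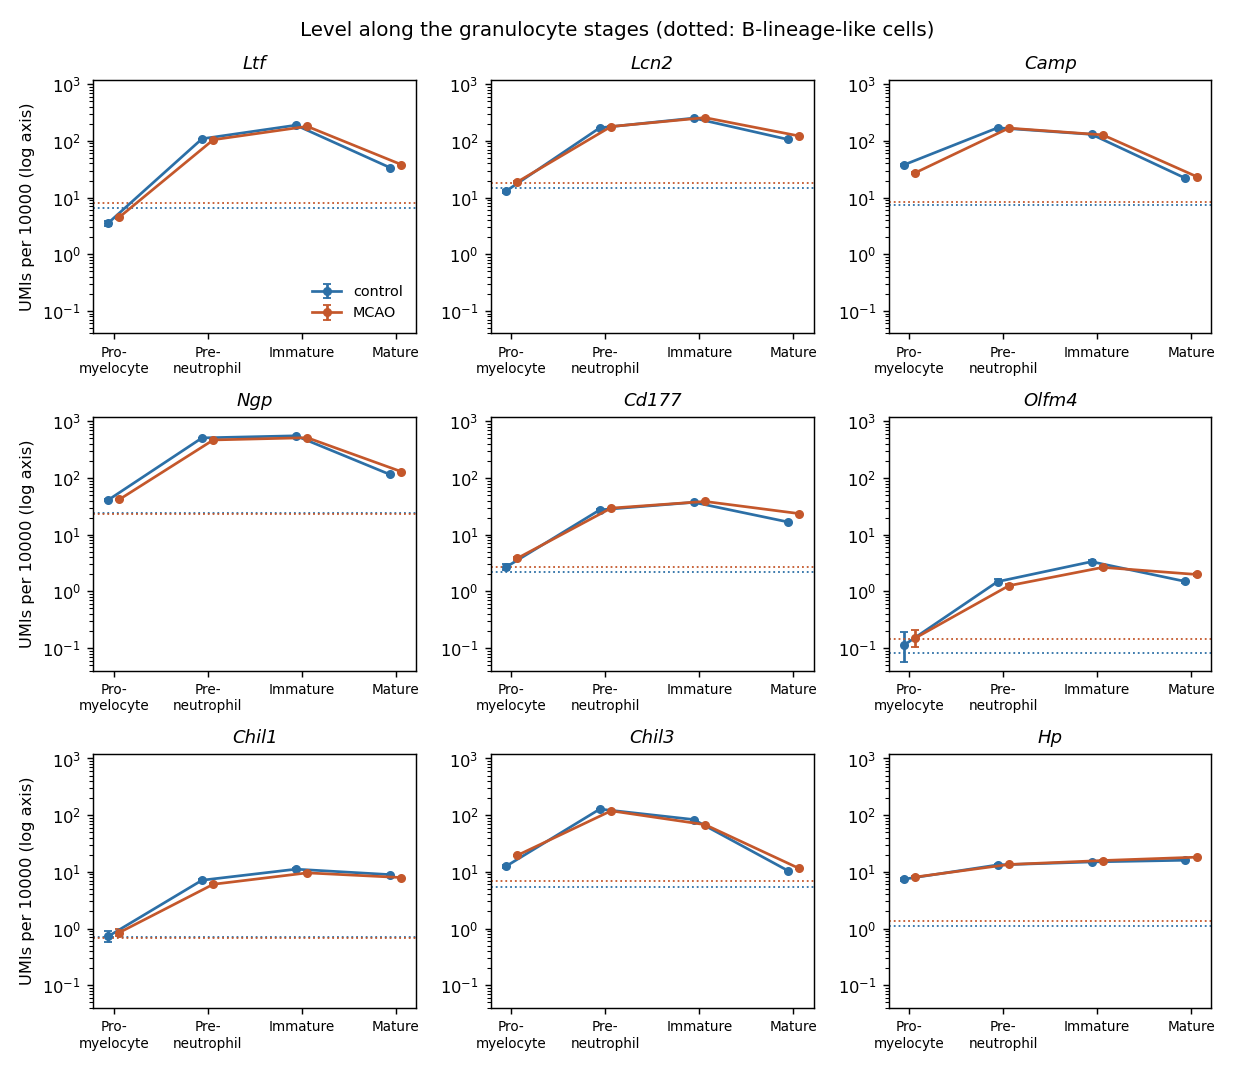
Level of each of the 9 genes (UMIs per 10000, log axis) in the 4 granulocyte stages of the control (blue) and MCAO (orange) libraries, with exact 95% Poisson intervals, most of them smaller than the points. Dotted lines give the level in all B-lineage-like cells of the same library, those at 300 or more included. Camp and Chil3 are highest in pre-neutrophil-like cells, 6 genes in immature-neutrophil-like cells and Hp in mature-neutrophil-like cells.

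Camp and Chil3 were the early members. Camp was highest in pre-neutrophil-like cells, at 170 UMIs per 10000 in control and 168 in MCAO, and was lower in immature cells, at 131 and 128. Chil3 passed from 128 in control and 119 in MCAO pre-neutrophil-like cells to 83.7 and 68.0 in immature cells, a called difference, where 35.6% and 39.2% of all genes tested were called lower. Both genes were lower again in mature cells, Camp at 21.9 and 23.4 and Chil3 at 10.5 and 11.5. Over all genes tested, 14.3% in control and 13.8% in MCAO had their highest level of the 4 stages in pre-neutrophil-like cells.

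In promyelocyte-like cells Camp, Ngp, Chil3 and Hp already stood above the free RNA level, at 6.87, 2.77, 3.19 and 7.78 times it in control and 4.45, 2.65, 3.16 and 7.31 times in MCAO. Lcn2 was at 1.18 and 1.43 times and Ltf at 0.890 and 0.974 times it. Promyelocyte-like cells exceeded progenitor-like cells for 6 of 8 genes tested in control and 5 of 8 in MCAO, where 13.5% and 13.1% of all genes were called higher. In MCAO 1 gene, Ltf, was called lower, and none of 8 in control, where 23.9% and 24.6% of all genes were. The median control promyelocyte-like cell held Camp at 7.59 UMIs per 10000, while the class as a whole stood at 37.6. In MCAO the median cell held 8.28 and the class 27.2. Cells with Camp at 30 or more, a limit chosen after the values were seen, made up 23 of 63 control and 39 of 132 MCAO promyelocyte-like cells. Ngp, which did not choose these cells, stood at 97.2 in control and 114 in MCAO cells of this kind, against 15.5 and 20.5 in the others, and Chil3 at 28.9 and 31.9 against 5.12 and 15.8. Fcnb, a pre-neutrophil marker that encodes ficolin B, stood at 46.8 and 41.6 against 6.29 and 11.2, and Cebpe at 4.83 and 4.53 against 1.40 and 2.30. Elane, the elastase gene of primary granules, was still at 99.2 and 94.4 in the cells with high Camp.

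Ltf had no such early carriers. In the promyelocyte-like cells with high Camp it stood at 4.20 in control and 4.96 in MCAO, beside 3.25 and 4.38 in the remaining cells and a free RNA level of 3.98 and 4.64. Its level in the next stage, pre-neutrophil-like cells, was 109 and 105, which is 30.8 times the promyelocyte level in control and 23.2 times in MCAO. Those were the largest steps between these stages among the 9 genes in each library. The next largest were 13.3-fold for Olfm4 and 13.1-fold for Lcn2 in control and 11.2-fold for Ngp in MCAO, and Hp had the smallest, at 1.79 and 1.67. Free RNA was not subtracted for these ratios. The promyelocyte level of Lcn2, 12.95 in control and 18.8 in MCAO, lay near its free RNA level of 10.98 and 13.2. The order of the ratios therefore does not rank the genes by their rise above free RNA.

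Ltf, Lcn2, Ngp, Cd177, Olfm4 and Chil1 were highest in immature-neutrophil-like cells of both libraries, a stage where only 9.44% of all genes in control and 8.94% in MCAO had their highest level. Ltf reached 189 UMIs per 10000 in control and 180 in MCAO immature cells. Lcn2 reached 252 and 257, Cd177 37.3 and 38.6, and Chil1 11.1 and 9.59. Relative to pre-neutrophil-like cells, Ltf, Olfm4 and Chil1 were called higher in both libraries, where 12.1% and 11.6% of genes tested were. The step for Ngp was small, 511 to 556 in control and 470 to 515 in MCAO.

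The genes differed widely in how far they were lower in the last stage. From immature to mature cells Chil3 was lower by a factor of 7.94 in control and 5.90 in MCAO, Camp by 5.96 and 5.45, Ltf by 5.60 and 4.71 and Ngp by 4.81 and 3.96. Lcn2 was lower by a factor of only 2.37 and 2.10, and Cd177 by 2.21 and 1.64. Chil1 stood at 8.93 and 7.93 in mature cells, 1.25 and 1.21 times below immature cells, which was not called. In all, 7 of the 9 genes were called lower in control and 6 in MCAO, where Olfm4 missed the limit at a factor of 1.34, and 24.9% and 24.4% of all genes tested were called lower.

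Hp changed little from the pre-neutrophil stage on. It stood at 7.41 UMIs per 10000 in control and 8.08 in MCAO promyelocyte-like cells, 13.2 and 13.5 in pre-neutrophil-like cells, 14.96 and 15.8 in immature cells and 16.02 and 18.2 in mature cells. It was thus the only member that was highest in mature cells, where 21.8% and 19.7% of all genes had their highest level. In promyelocyte-like cells it already exceeded the free RNA level, 0.952 in control and 1.105 in MCAO.

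The mature-neutrophil-like clusters showed the same order. Cluster 5, led by Thbs1 and Mmp8, still held Ltf at 70.3 UMIs per 10000 in control and 91.2 in MCAO. In cluster 1, led by Ifit3 and Il1b, Ltf stood at 5.44 and 6.17, which is 1.37 and 1.33 times the free RNA level. In cluster 6, led by Il1b and Ifitm1, it stood at 7.09 and 5.10, or 1.78 and 1.10 times. Lcn2 remained further above the free RNA level of 10.98 and 13.2, at 62.5 and 70.6 in cluster 1 and at 31.5 and 59.5 in cluster 6. Hp was at 17.4 and 18.3 in cluster 1 and in cluster 6 at 13.8 in control, with MCAO 1.38 times higher. Hp in cluster 1 was at 18.3 and 16.5 times its free RNA level.

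The spread over cells differed in the same way. In immature cells the tenth of cells with most UMIs of a gene held 18.4% to 25.8% of its UMIs for 8 of the 9 genes in both libraries, so that no small group of cells carried them. In mature cells that share was 75.8% of Ltf UMIs in control and 68.6% in MCAO, 61.9% and 56.4% for Camp, 60.9% and 55.3% for Ngp and 59.1% and 52.3% for Chil3. For Hp it was 28.1% and 24.5%. The median mature cell held Ltf at 5.04 in control and 6.49 in MCAO, far below the class levels of 33.8 and 38.3.

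**Figure D2:**
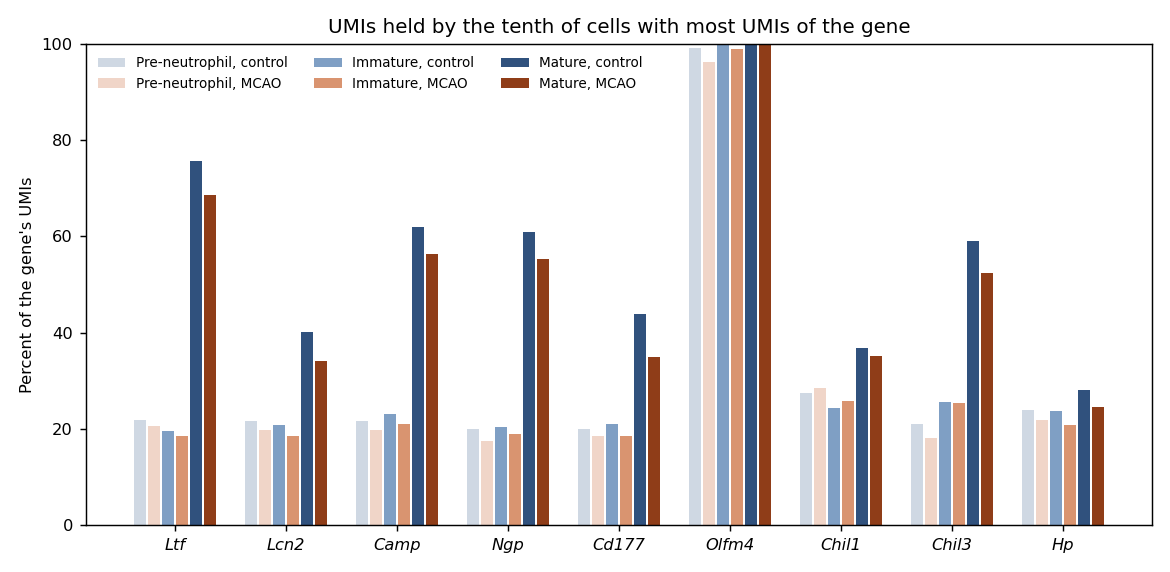
Percent of the UMIs of each gene held by the tenth of cells with most UMIs of that gene, in pre-neutrophil-like, immature and mature cells of the control (blue shades) and MCAO (orange shades) libraries. Olfm4 stands between 96.3% and 100% in all 3 stages, and Ltf reaches 75.8% in control mature cells.

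Olfm4 was the exception, since few cells carried nearly all of it. Among immature cells 604 of 674 in control and 756 of 855 in MCAO had no Olfm4 UMI. Cells with at least 5 UMIs, a limit chosen after the values were seen, numbered 42 in control (6.23% [4.53 to 8.33]) and 53 in MCAO (6.20% [4.68 to 8.03]), and held 97.5% and 96.2% of the gene's UMIs. The cut sets a floor under their level, so the values of Olfm4 in them describe chosen cells. The median such cell held 52.1 UMIs per 10000 in control (lowest 16.7, highest 96.4) and 39.5 in MCAO (lowest 15.9, highest 82.4). Summed over the same cells, Cd177 stood at 36.2 in control and 39.8 in MCAO. The class level of Olfm4 was 3.34 in control and 2.65 in MCAO.

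Among promyelocyte-like cells 0 of 63 in control, which allows a share of up to 5.69%, and 2 of 132 in MCAO held at least 5 Olfm4 UMIs, at levels of 5.83 and 10.05. In the 3 later stages such cells were 2.19% to 6.67% of each class, and these shares were not tested between the libraries. They made up 18 of 270 control (6.67% [3.999 to 10.3]) and 28 of 444 MCAO pre-neutrophil-like cells (6.31% [4.23 to 8.99]). In mature cells they were 33 of 1508 (2.19% [1.51 to 3.06]) and 56 of 1497 (3.74% [2.84 to 4.83]), at median levels of 33.8 and 30.2. Depth differed little between carriers and cells without the gene in the immature stage, with medians of 4875 and 4914 UMIs in control and 5768 and 5752 in MCAO. In the mature stage carriers were deeper, at 3697 against 2543 and at 4649 against 3234, which bears on the chance to reach 5 UMIs.

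Immature cells with at least 5 Olfm4 UMIs and cells without any did not differ much in the other 8 genes. Ltf stood at 193 in control carriers and 189 in cells without Olfm4, and at 173 and 181 in MCAO. Ratios of carriers to cells without the gene ran from 0.961 to 1.07 in control. In MCAO they ran from 0.954 to 1.06 for 7 of the 8 genes, while Chil3 stood at 81.4 in carriers and 67.0 in the others, a ratio of 1.22 [1.17 to 1.27]. Retnlg, a resistin-like gene of later neutrophils, was lower in carriers of both libraries, at 46.6 against 63.7 in control and 55.7 against 66.8 in MCAO. Cebpe, highest in an earlier stage, had ratios of 0.733 [0.552 to 0.958] in control and 0.863 [0.686 to 1.07] in MCAO. For Mmp8 the ratios were 1.05 and 0.742, and for Ly6g, Itgb2l and S100a8 they ran from 0.936 to 1.03 over both libraries. These genes thus did not place the carriers earlier or later. Mature cells differed more. There Camp was 2.13 times as high in control carriers as in cells without Olfm4 [1.96 to 2.30] and 1.64 times in MCAO carriers, Ltf 1.75 and 1.56 times and Ngp 1.67 and 1.62 times, while Hp was at 1.01 and 1.02 times.

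Within immature cells, Camp, Ngp, Chil3, Ltf and Lcn2 varied together from cell to cell, while the other 4 genes had correlations near 0 with Camp and Ltf. After each cell was thinned to 1000 UMIs, the correlation over 649 control and 850 MCAO cells was 0.52 in control and 0.42 in MCAO for Camp with Ngp, 0.51 and 0.49 for Camp with Chil3, 0.42 and 0.42 for Ltf with Ngp, and 0.38 and 0.36 for Lcn2 with Camp. For Camp with Hp it was 0.01 and -0.05, and for Camp with Olfm4 -0.02 and -0.04. These cells share a library, and low counts hold such values near 0 for Hp, with a mean of 1.46 and 1.57 UMIs per thinned cell, and for Olfm4 with 0.35 and 0.28.

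MCAO and control cells of the same stage were close in these genes. No member passed 1.5-fold in either direction in pre-neutrophil-like, immature or mature cells, 0 of 9 in each, where 4.28%, 3.85% and 4.39% of all genes tested were called higher and 3.71%, 4.72% and 6.86% lower. The summed level was 1137 UMIs per 10000 in control and 1091 in MCAO pre-neutrophil-like cells, and 1279 and 1215 in immature cells. In immature cells Chil3 was 0.813 times the control level [0.801 to 0.826], Olfm4 0.794 times [0.733 to 0.860] and Chil1 0.861 times [0.825 to 0.899], while Lcn2 and Cd177 were at 1.02 and 1.04 times. Chil1 was lower in MCAO in pre-neutrophil-like, immature and mature cells as wholes, though within the mature stage it was higher in clusters 6 and 8. In promyelocyte-like cells, where the sum was 118 and 125, Chil3 was the 1 gene called, at 12.5 in control and 19.5 in MCAO, where 6.12% of genes tested were called higher, and 0 of 8 were called lower, where 4.79% were. This count of calls depended on the setting. The log2 ratio of Chil3, 0.64, was 0.55 with the 9 genes kept for the clustering and 0.55 after thinning, both short of the limit of 1.5-fold. At a finer clustering (resolution 2) it was 0.91, and Lcn2, Cd177 and Olfm4 also passed, at 0.61, 0.59 and 0.80. The promyelocyte-like class of that clustering held other cells as well, 112 in control and 206 in MCAO, against 63 and 132. It took in a cluster whose leading genes included Gria3, Met and Nrg1, which were also among the leading genes of monocyte-like cluster 9. The part of these cells was not tested. Camp, at 37.6 and 27.2 or a log2 ratio of -0.47, passed the limit after thinning, at -0.59, and with the free RNA level subtracted, at -0.61. That subtraction also put Lcn2, Cd177, Chil1 and Olfm4 past it, at 1.498, 0.79, 0.99 and -0.75, beside Chil3 at 0.63. Cd177 passed it as a mean over cells and both Cd177 and Chil1 after thinning, at 0.94 and 1.33 for thinning.

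**Figure D3:**
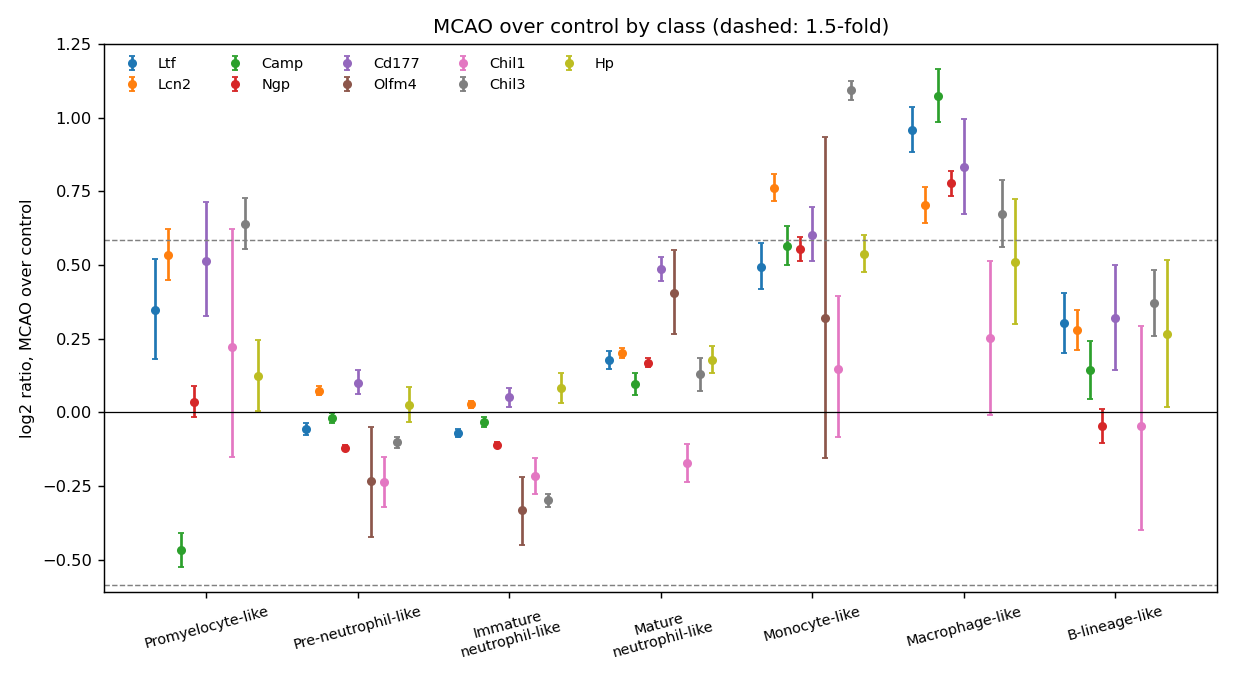
Log2 ratio of MCAO over control for each gene in 7 classes, with exact 95% intervals for counting error and dashed lines at 1.5-fold. Genes with under 50 UMIs over both sums are left out, as is Olfm4 in macrophage-like cells, which had 5 UMIs in control. In pre-neutrophil-like, immature and mature cells all genes lie inside the dashed lines, and Chil3 in monocyte-like cells stands at 1.09.

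The summed level in mature cells was 332 UMIs per 10000 in control and 377 in MCAO, and this gap depended on which clusters were summed. Without cluster 8 the sums were 329 and 328. Within each cluster, however, the MCAO cells stood higher, at 145 and 165 in cluster 1, 576 and 669 in cluster 5, 106 and 131 in cluster 6 and 386 and 449 in cluster 8. Cluster 5, with the highest sum, held 29.4% of control mature cells and 14.8% of MCAO ones. Among the genes, Cd177 had the largest MCAO ratio in the mature stage, at 16.8 and 23.6 or 1.40-fold [1.36 to 1.44], and 1.13-fold without cluster 8. As a mean over cells its log2 ratio was 0.585, just past the limit. It was higher in MCAO in all 4 clusters, at 8.63 and 11.9, 28.2 and 35.8, 3.08 and 7.78, and 19.7 and 30.5 in clusters 1, 5, 6 and 8.

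In cluster 6 the genes parted, with 3 of 9 called higher in MCAO, where 11.2% of all genes tested were, and 0 lower, where 15.9% were. Cd177 was 2.53 times the control level [2.05 to 3.14] and Lcn2 1.89 times [1.77 to 2.02], while Olfm4, with 3 control and 55 MCAO UMIs, had a ratio of 5.57 [1.81 to 27.8]. Chil1 was at 1.48 times and Hp at 1.38 times. Ltf, Camp, Ngp and Chil3 were at 0.714 to 0.727 times the control level as sums, but their median cells were not lower in MCAO, with Ngp at 14.7 in control and 17.2 in MCAO and Camp at 5.64 and 5.74. The tenth of control cells with most UMIs held 60.6% of Ngp and 62.7% of Ltf UMIs there, and of MCAO cells 33.9% and 34.8%. Cluster 6 held 199 control and 422 MCAO cells.

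Transcripts of all 9 genes were found in each of 8 groups outside the granulocytes, at a low and even level. These groups were T-cell-like, NK-cell-like, B-cell-like, erythroid-like, pro-B or pre-B-like, plasmacytoid dendritic-like and basophil or mast-like cells and the unnamed cluster 3. The median cell held the 9 genes at 39.8 to 47.0 UMIs per 10000 in control and at 46.0 to 55.6 in MCAO. The class sums were 37.7 to 88.3 in control and 46.3 to 100 in MCAO. Without cells at 300 or more, a limit chosen after the values were seen, the sums narrowed to 37.7 to 45.1 and 46.3 to 58.0. Such cells were few, as in MCAO T-cell-like cells, where 2 of 91 cells held 41.6% of the 9-gene UMIs. The mix of genes was also alike in these groups: Ngp made up 35.3% to 40.4% of the 9-gene UMIs in control and 30.6% to 36.9% in MCAO, and Ltf 9.26% to 11.2% and 8.99% to 12.6%. Lcn2 made up 20.8% to 25.5% and 23.5% to 28.9%, beside 20.1% and 21.1% in the neutrophil-like stages as a whole. Calls between the libraries in these groups were mixed. In erythroid-like cells 0 of 9 genes were called, where 3.41% of all genes tested were called higher and 5.61% lower. In B-lineage-like cells 0 of 8 were called, where 4.52% and 6.09% were, but without the cells at 300 or more Chil3 was called higher in MCAO, at 3.91 and 6.17, where 4.7% of genes were. In T-cell-like cells all 7 genes tested were called higher in MCAO, where 7.64% of genes were, and 4 of 7 (Lcn2, Cd177, Chil3 and Hp) without 2 MCAO cells, where 7.04% were. In NK-cell-like cells Ltf, Ngp and Hp, 3 of 7, were called lower in MCAO, where 10.8% of genes were. Without 1 control cell Ltf, 1 of 6, was called higher there instead, where 8.45% were. Of 8 genes tested, Hp was called higher in plasmacytoid dendritic-like cells and in cluster 3, where 6.85% and 5.96% of genes were, and Cd177, 1 of 7, in basophil or mast-like cells, where 8.76% were.

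**Figure D4:**
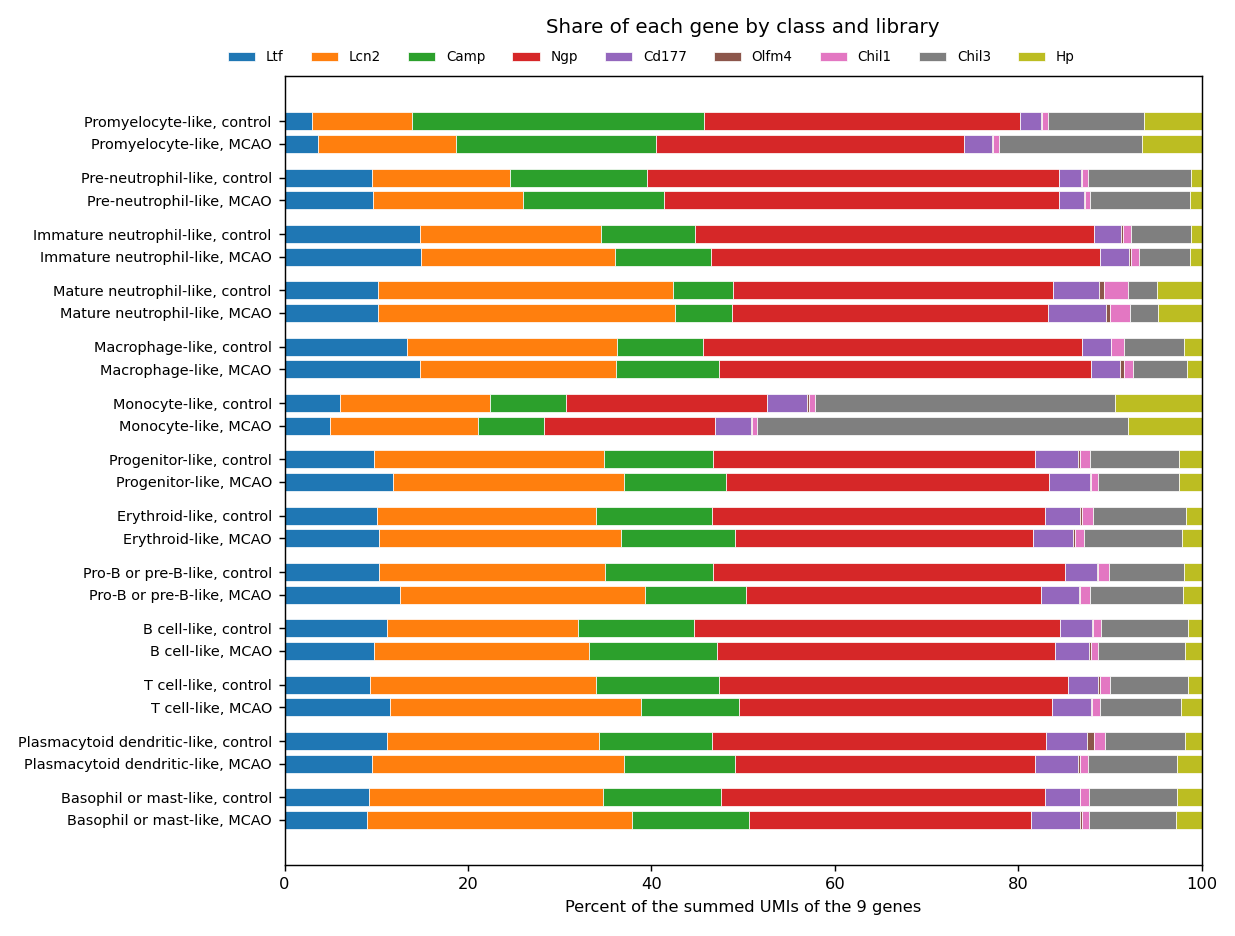
Share of each gene in the summed UMIs of the 9 genes, by class and library. Non-myeloid classes show nearly the same mix as one another, monocyte-like cells have a large Chil3 share (32.6% in control and 40.5% in MCAO), and promyelocyte-like cells have a large Camp share (31.8% and 21.8%).

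Progenitor-like cells, 64 in control and 75 in MCAO, carried the 9 genes at 37.9 and 71.5 UMIs per 10000, and 7 of 8 tested genes were called higher in MCAO, where 6.32% of all genes tested were. None was called lower, where 7.98% were. Of the MCAO sum 20.2% came from 2 cells, and without them it was 58.6, or 1.55 times the control level. The free RNA level of the 9 genes was 42.3 in control and 49.7 in MCAO. The 8 groups above reached 58.0 in MCAO without cells at 300 or more. Progenitor-like cells thus lay below the free RNA level in control and near the upper end of those groups in MCAO. Immature-neutrophil markers moved with this, since their 8 genes summed to 9.39 in control and 14.9 in MCAO cells without those 2, and their part in the result was not tested. Ltf was not higher in promyelocyte-like than in progenitor-like cells, with 3.54 and 3.68 in control and 4.51 and 8.49 in MCAO. Without the 2 MCAO progenitor-like cells the last value was 6.16.

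Monocyte-like cells, 509 in control and 813 in MCAO, held Chil3, Hp and Cd177 above the free RNA, and not Ltf, Camp or Ngp. Chil3 stood at 22.4 UMIs per 10000 in control and 47.8 in MCAO, against a free RNA level of 3.91 and 6.17. Hp stood at 6.53 and 9.48, against 0.952 and 1.105. Without cells at 300 or more in either class, Ltf was at 0.962 times the free RNA level in control and 0.911 times in MCAO, Camp at 0.972 and 0.981 times and Ngp at 0.923 and 0.926 times. Chil3 made up 32.6% of the 9-gene UMIs in control and 40.5% in MCAO monocyte-like cells, beside 7.61% and 7.27% in the neutrophil-like stages. Without the cells at 300 or more Chil3, Hp and Cd177, 3 of 9, were called higher than in B-lineage-like cells in both libraries, where 20.2% and 21.6% of genes tested were, and Cd177 was at 1.81 and 2.05 times. None was called lower in control and 1, Olfm4, in MCAO, where 30.3% and 30.4% of genes were, and its ratio of 0.633 had a counting interval of 0.383 to 1.09. With the cells at 300 or more kept, Chil3 and Hp were called higher in control, with Cd177 added in MCAO, where 20.1% and 21.3% of genes were, and Ltf and Ngp were called lower in control and none in MCAO, where 29.9% and 30% were.

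Chil3 was the gene with the largest difference between the libraries in monocyte-like cells, at 2.13 times the control level [2.09 to 2.18]. Lcn2, at 11.2 and 19.1, and Cd177, at 3.04 and 4.63, were also called higher, so that 3 of 9 genes were called where 3.72% of all genes tested were. None was called lower, where 4.19% were. Without the 2 control and 30 MCAO cells at 300 or more of the 9 genes only Chil3 was called, 1 of 9, where 3.51% of genes were, since Lcn2 was then at 1.44 and Cd177 at 1.41 times the control level. In cluster 2, led by Vcan, Ccr2 and Fn1, Chil3 stood at 22.7 in control and 64.3 in MCAO, or 2.83-fold [2.74 to 2.93], and in cluster 9, led by Itga1 and F13a1, at 22.2 and 35.1, or 1.58-fold [1.53 to 1.63]. In cluster 9, 12 MCAO cells at 300 or more held 26.1% of the 9-gene UMIs and 2 control cells 8.23%. Without them Chil3 there was at 1.47 times the control level, Cd177 at 1.41, Lcn2 at 1.34, Camp at 1.09 and Ngp at 1.05 times, and in cluster 2 Chil3 was at 2.59 times and Lcn2 at 1.61 times. After thinning, 63.6% of control and 83.6% of MCAO monocyte-like cells had a Chil3 UMI, against 33.6% and 44.7% of B-lineage-like cells. Unthinned, the shares were 94.7% and 99.5%, against 58.6% and 78.1%, and thinning left out 7 control and 2 MCAO monocyte-like cells and 60 and 3 B-lineage-like cells. Without the cells at 300 or more, Chil3 was at 22.2 and 43.8, while Ltf was at 3.83 and 4.22, Ngp at 13.6 and 14.6 and Camp at 5.31 and 5.99. Chil3 was still 1.97 times the control level without these cells, beside 1.58 times for its free RNA level, and Hp was at 6.47 and 9.29. All 8 immature-neutrophil markers were above 0 in monocyte-like cells of both libraries, with sums of 38.2 and 44.8, and 37.9 and 43.2 without those cells, and their part in the result was not tested. The sums exceeded those of all B-lineage-like cells, which are given below with the macrophage-like cells. Single markers differed. With all cells kept, Ly6g was at 0.756 and 0.993, against 0.984 and 1.07 in B-lineage-like cells, and Mmp8 at 3.75 and 6.54, against 3.37 and 3.31.

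Cd177 in monocyte-like cells differed between their clusters. In cluster 2 it was 4.32 in control and 6.08 in MCAO, above the free RNA level of 1.655 and 2.055. Without the 18 MCAO cells at 300 or more it was at 2.61 and 2.785 times that level, while Ngp was at 0.877 and 0.914 times and Ltf at 0.877 and 0.891 times. In cluster 9 it was 2.26 and 3.51. After thinning, 28.6% of control and 42.7% of MCAO cells of cluster 2 held a Cd177 UMI, against 15.96% and 18.95% of B-lineage-like cells. Unthinned, the shares were 76.7% and 89.8%, against 33.4% and 49.4%.

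Macrophage-like cells had a higher sum than any other class outside the granulocyte stages, at 391 UMIs per 10000 in 94 control cells and 684 in 69 MCAO cells. Their defining genes were present, with C1qa, C1qb, C1qc and Vcam1 at the head of the class. All 8 tested genes in control and all 9 in MCAO were called above B-lineage-like cells, where 18.2% and 16.9% of genes were. Between the libraries 7 of 9 were called higher in MCAO, where 8.47% of genes tested were, and none lower, where 16.5% were, with Ngp at 162 and 277, Ltf at 52.1 and 101, Camp at 36.4 and 76.7 and Lcn2 at 89.8 and 146. The values came from an uneven class: the median cell stood at 82.5 in control and 337 in MCAO, and the upper quartile at 289 and 1032.

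**Figure D5:**
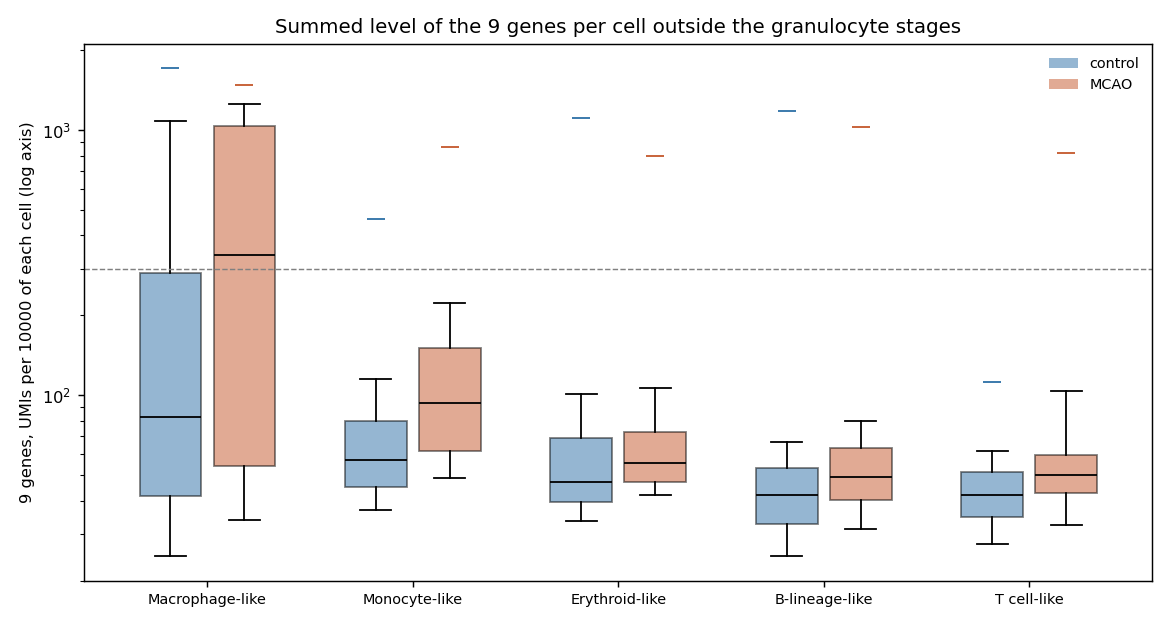
Summed level of the 9 genes per cell (UMIs per 10000, log axis) in 5 classes of the control (blue) and MCAO (orange) libraries. Boxes span the quartiles with the median, whiskers the 10th to 90th percentile, short bars mark the highest cell, and the dashed line is at 300. Macrophage-like boxes reach 289 in control and 1032 in MCAO, and B-lineage-like boxes stay under 64.

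The macrophage-like cells fell into cells with little and cells with much of the 9 genes, and the share of the latter differed between the libraries. Cells at 300 or more were 23 of 94 in control (24.5% [16.2 to 34.4]) and 37 of 69 in MCAO (53.6% [41.2 to 65.7]). They held 87.3% and 96.9% of the 9-gene UMIs of the class. Without them the sum was 78.8 in control and 65.3 in MCAO, so that the MCAO level was no longer the higher one. The remaining cells held Ltf at 4.55 and 6.51 and Ngp at 25.7 and 18.7, which is 1.14 and 1.40 times and 1.74 and 1.18 times the free RNA level. Hp stood at 4.89 and 4.50, or 5.13 and 4.07 times, and Lcn2 at 25.1 and 18.2, or 2.28 and 1.38 times. Chil1 stood at 2.615 and 0.723, or 4.83 and 1.555 times. These cells still held neutrophil markers, more so in control. Their 10 mature-neutrophil markers summed to 126 and 36.9, against 22.96 and 19.59 in all B-lineage-like cells. The 8 immature-neutrophil markers summed to 48.9 and 25.3, against 16.17 and 16.28. The part of these markers in the levels and the MCAO ratio of the remaining cells was not tested.

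Macrophage-like cells with high levels carried other neutrophil transcripts in parallel and fewer macrophage ones. Their 9-gene sum was 919 in control and 984 in MCAO, and Ngp made up 42.7% and 40.9% of it and Ltf 14.4% and 14.96%, beside 42.6% and 41.4% and 12.3% and 12.1% in the neutrophil-like stages. S100a8 stood at 516 and 578, against 135 and 79.5 in the remaining macrophage-like cells. All 8 immature-neutrophil markers were present in both libraries, with sums of 172 and 182 against 48.9 and 25.3, and the 10 mature-neutrophil markers summed to 168 and 123 against 126 and 36.9. The 3 C1q genes summed to 33.2 and 19.3, against 133 and 150 in the remaining cells. The cells were also deeper, with medians of 5358 and 6375 UMIs against 2151 and 2267, and the doublet caller marked 0 and 1 of them. The part of these markers and of depth in the result was not tested. Of the Olfm4 UMIs of MCAO macrophage-like cells, 112 of 113 were in cells at 300 or more, and only 6 cells held them.

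The other genes of the program were read from lists chosen for their link to secondary granules. Of 14 further cargo and membrane genes, 0 passed 1.5-fold between the libraries in pre-neutrophil-like, immature or mature cells, where 4.28%, 3.85% and 4.39% of all genes tested were called higher and 3.71%, 4.72% and 6.86% lower, with medians of -0.045, -0.046 and 0.024 on the log2 scale beside 0.020, -0.013 and -0.013 over all genes tested. Of 13 tested in promyelocyte-like cells Abca13 was called higher and Fpr1 lower, where 6.12% and 4.79% of genes were. In monocyte-like cells Mmp8, Abca13 and Fpr1, 3 of 14, were called higher and none lower, where 3.72% and 4.19% were. In macrophage-like cells Itgb2l, Orm1 and Ceacam1 were called higher and Fpr1 lower, of 13, where 8.47% and 16.5% were. The same shares of all genes stand beside the lists that follow. All list calls in monocyte-like and macrophage-like cells used the whole classes, with the cells at 300 or more of the 9 genes kept. Such cells were 24.5% of control and 53.6% of MCAO macrophage-like cells, and 2 control and 30 MCAO monocyte-like cells. Their part in these calls was not tested. Lyz2, a lysozyme gene with the near copy Lyz1, stood at 152 in control and 139 in MCAO pre-neutrophil-like cells and at 238 in control immature cells. Mmp8, the neutrophil collagenase gene, stood at 2.63 and 2.48 in pre-neutrophil-like cells, below the 3.37 and 3.31 of all B-lineage-like cells, and at 52.1 in control immature cells. Mmp8 was among the markers used to name immature-neutrophil-like cells, so a high level there was favoured by the naming. Cybb, a subunit of the granule oxidase, was at 36.8 and 34.7 in pre-neutrophil-like cells, and Itgam, an integrin chain stored in these granules, at 13.1 and 11.8.

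Of 9 regulators of granule genes, 1 was called higher in MCAO in pre-neutrophil-like cells, namely Cebpa at 0.14 and 0.22, and 1 was called lower in mature cells, namely Gfi1 at 0.065 and 0.041. None was called in promyelocyte-like, immature or monocyte-like cells, and Cebpe was called higher in macrophage-like cells, at 1.12 and 2.42. Cebpe, the C/EBP epsilon gene, stood at 2.46 UMIs per 10000 in control and 2.81 in MCAO promyelocyte-like cells, 5.16 and 4.99 in pre-neutrophil-like cells, 3.46 and 3.26 in immature cells and 0.63 and 0.89 in mature cells. It thus had its highest level 1 stage before most of the 9 genes. Cebpe was, however, among the markers used to name pre-neutrophil-like cells, so a high level there was favoured by the naming. Spi1, the PU.1 gene, and Cebpd were highest in mature cells, at 7.37 and 6.997 and at 7.39 and 6.83. Stat3 stood between 1.60 and 3.48 in all 4 stages of both libraries.

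Of 8 receptors and handling genes, Lrp1 and Hmox1, 2 of 6 tested, were called higher in MCAO in promyelocyte-like cells, and Fpr2, 1 of 6, in monocyte-like cells. Prtn3 was called higher in macrophage-like cells and Lrp1 lower, of 6. Prtn3 was also called higher, 1 of 5, in immature and in mature cells, with 0.82 and 1.24 and with 0.91 and 1.43, beside 0.997 and 1.57 in B-lineage-like cells and 109 in promyelocyte-like cells of both libraries. Of the 5 with enough UMIs in pre-neutrophil-like cells, 1 was called lower, Pecam1 at 0.127 and 0.075. Prtn3 encodes proteinase 3, which binds CD177 on the neutrophil surface. Fpr2, a receptor for the cathelicidin peptide, was at 11.9 and 12.4 in immature cells. Hmox1, which breaks down haem, was at 23.9 and 31.0 in macrophage-like cells and Cd163, the receptor for haptoglobin bound to haemoglobin, at 5.41 and 5.01 there. Slc48a1, a haem transporter, was at 4.03 and 3.04 in macrophage-like cells. The last list joined chitinase and olfactomedin genes with Ceacam10 and Ltb4r1, and no sequences were compared to choose it. Of its 9 measured genes, 4 had enough UMIs in pre-neutrophil-like cells, where Olfm1 and Ceacam10 were called higher and Ltb4r1 lower. In immature and in mature cells 3 had enough, and none was called. Olfm1 was called higher in monocyte-like cells, 1 of 3, and Ceacam10 in macrophage-like cells, 1 of 2, and none of 2 was called in promyelocyte-like cells. Ceacam10 was at 2.27 and 2.66 in immature cells and Ltb4r1 at 3.18 and 2.28.

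The genes whose level most resembled the 9-gene sum were Abca13 (Pearson r of 0.982) and Cebpe (0.981), followed by Inhba, Anxa1, Cd63, Gca, Wfdc21, Cd63-ps, Mgst2 and Itgb2l. This was measured over 8 classes in both libraries, 16 points that share free RNA and class depth. Abca13 and Itgb2l were among the markers used to name immature-neutrophil-like cells, and Cebpe among those for pre-neutrophil-like cells. Their likeness to the sum was thus favoured by the naming. Among the members, Ltf was most like Ngp (0.994), while Lcn2 was most like Wfdc21 (0.998) and Chil1 like S100a9 (0.994). Hp was most like Clec4a2 (0.984) and Chil3 like C3 (0.957), neither of them a member.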

How the data were processed

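Whole-transcriptome libraries from the BD Rhapsody system, 1 per condition, were counted from the 3' end. Tools listed in the submitters' processing notes include STAR and UMI-tools, with Seurat 4.0.6 and the mm10 build. Filters on cells were not stated in the labels. The authors deposited natural log values, read from the numbers as the natural log of 1 plus 10000 times a gene's share of a cell's UMIs. Whole UMIs were recovered for 100% of 19373615 values above 0 (tolerance 0.01). Cells were assigned to libraries by column names that read control and stroke in Mandarin. Cell names are running numbers, so shared barcodes could not be counted. 1.04% of control and 1.19% of MCAO cells were marked as doublets and kept.

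Cells were clustered with leidenalg 0.10.2 (2000 variable genes without the 9 members, 30 principal components, 20 neighbours, resolution 1), which gave 25 clusters, 3 of them unnamed. Names followed a marker rule settled with the values in view. The members, gene lists and markers were chosen with earlier results of these data known. Levels have exact Poisson intervals, ratios exact conditional intervals and shares exact Clopper-Pearson intervals (scipy 1.17.1), and log2 ratios used a pseudocount of 0.02 per 10000. All members were named, with up to 4 genes of each list, those with the highest level over the stages. Fcnb, Elane, Retnlg, S100a8, Ly6g, Itgb2l, the C1q genes, Cd163, Cebpa, Gfi1, Pecam1, Lrp1, Olfm1 and the list genes named only for a call were named after their values were seen. Calls and intervals were run on Poisson counts simulated from the mean of immature-neutrophil-like cells, without the spread between cells seen in the data. That run checks the computation only, and the intervals do not cover the spread between cells. Alternatives were other clusterings, no doublets, deeper cells, means over cells, free RNA levels subtracted, another pseudocount and thinning.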

Additional observations from a re-analysis of the deposited data

Results flagged for a closer look

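For 5 genes and their sum, the MCAO library was lower than control in immature-neutrophil-like cells and higher in mature-neutrophil-like cells, with neither interval reaching 1. The log2 ratio in mature cells exceeded that in immature cells by 0.25 for Ltf, 0.13 for Camp, 0.28 for Ngp, 0.74 for Olfm4, 0.43 for Chil3 and 0.26 for the sum of the 9 genes. Each stage had 1 library per condition, so this difference was not tested. Without cluster 8 the ratio in mature cells was 1.04 for Ltf, 0.947 for Camp, 0.965 for Ngp, 1.08 for Olfm4, 0.945 for Chil3 and 0.996 for the sum.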

How the results depend on the processing

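No paired analysis was possible because each condition had 1 library. In no setting did the summed level reach 1.5-fold in a stage. The log2 ratio of the sum, 0.077, -0.059, -0.074 and 0.186 from promyelocyte-like to mature cells, changed little with the pseudocount. In promyelocyte-like cells it was -0.013 with the 9 genes kept for clustering, 0.336 at resolution 2, 0.039 as a mean over cells, -0.016 with the B-lineage-like level subtracted and -0.047 after thinning. At resolution 2 this class held 112 control and 206 MCAO cells, against 63 and 132. In pre-neutrophil-like cells the same settings other than resolution 2 gave -0.066, -0.045, -0.073 and -0.051. In immature cells the last 3 of them gave -0.044, -0.086 and -0.081. With the cells at 300 or more left out of the subtracted level, a choice made after the values were known, the ratios in these stages were -0.018, -0.072 and -0.085. In mature cells it was 0.174 without doublets, 0.073 in cells with at least 2000 UMIs, 0.287 as a mean over cells, 0.271 after thinning and, in a comparison added with the values in view, -0.005 when cluster 8 was left out. The causes were not tested. Among the 36 gene ratios of the 4 stages, 1 passed 1.5-fold, against 0 with the 9 genes kept for clustering, 4 at resolution 2, 2 as a mean over cells, 6 with either free RNA level subtracted and 3 after thinning. With the whole level subtracted the largest shift was 5.09, for Lcn2 in promyelocyte-like cells, whose control level is then near 0. The stage of highest level was unchanged for all 18 pairs of gene and library under each of 8 settings. Without cells at 300 or more of the 9 genes, also chosen after seeing the data, the log2 ratio in macrophage-like cells turned from 0.807 to -0.271. Genes with under 50 UMIs over both sums, such as Olfm4 in B-lineage-like cells, could not be called at this depth.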
